A study of Mus musculus with 31 samples.

Results

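The cadherins and protocadherins described here are 85 of the 17484 features in 5 deposited tables of allele-specific mouse RNA-seq. They are the autosomal rows whose first gene symbol begins with Cdh or Pcdh followed by a digit, a, b or g. They comprise 18 cadherins, 7 non-clustered protocadherins, and 15 rows of the alpha, 22 of the beta and 23 of the gamma protocadherin cluster. Of these rows, 1 carries 14 joined alpha names, 1 carries 22 joined gamma names, and 1 joins Pcdha4-g with Pcdha4, and each was kept as a row of its own. The tables listed 61 of the 85 members for embryonic stem cells, 84 for each culture day and all 85 for each cortex stage. Cdh1, Cdh3 and Cdh5 were not analysed here.

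The study sequenced RNA from F1 hybrids of the mouse strains C57BL/6 (B6) and JF1, so that reads at strain differences could be assigned to a parent. In BJ1 hybrids the mother was B6, and in JB6 hybrids the mother was JF1. There were 4 libraries of embryonic stem cells (ESC), 4 of the same kind of cells at day 12 of culture toward cortex and 4 at day 21, each made of 2 BJ1 and 2 JB6 libraries and all labelled male. There were 6 libraries of the dissected E13.5 tissue that the labels call DT, with 3 from each cross and 1 of them male, and 7 of P0 cortex, with 4 BJ1 and 3 JB6 libraries and 1 of them male. The stem cells came from hybrid blastocysts whose B6 parent carried an Oct4-GFP transgene, and they were kept in a medium with a GSK3-beta inhibitor, LIF and BMP4. Per the deposited description, the B6 parent of these lines was of mixed background with CBA. The part of CBA in the B6 shares of ESC and culture was not tested. Both culture days followed plating on matrigel in a defined medium with B27 lacking vitamin A and, between days 2 and 10, cyclopamine, an inhibitor of hedgehog signalling. The labels name the cultures only by cross, so a line and its cross cannot be told apart, and sex cannot be told apart from culture against cortex beyond the 2 male cortex libraries. In E13.5 BJ1 and in P0 BJ1, the library labelled male cannot come from the same animal as those labelled female. Otherwise nothing in the labels says whether libraries of a group came from separate cultures or animals. The p-values therefore measure the spread between these libraries, which may be technical.

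Cadherins are calcium-dependent adhesion proteins that bind the same kind of molecule on a neighbouring cell, and the classical ones hold to actin through catenins. N-cadherin, the product of Cdh2, joins neuroepithelial cells at their apical side. In the alpha and gamma protocadherin clusters, each variable exon has its own promoter and is spliced to constant exons shared by the whole cluster, whereas each beta gene is a single exon. Neurons switch on different sets of these promoters, and the proteins serve in recognition of a neuron's own branches.

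The deposited values are counts of read bases at strain differences, maternal and paternal. A level here is the sum of both alleles scaled to 1000000 read bases in the library, abbreviated CPM (counts of read bases, not of reads). A member with more strain differences collects more read bases, so levels are compared between samples of one member and not between members. The 25 libraries held 5192382 to 8618253 read bases, of which 10.6 to 21.98% were mitochondrial. Members were tested only where they averaged at least 20 read bases per library over all libraries of the stages compared, and the change of an allele ratio only where they did so at each of the 2 stages. Log2 fold changes, standard errors (SE) and adjusted p come from edgeR's quasi-likelihood test with Benjamini-Hochberg adjustment over all features, and a member passed at an adjusted p of 0.05 or less.

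Marker genes of the labelled tissue were read alongside. The summed level of 7 dorsal telencephalic progenitor genes was 8.90 to 20.5 CPM in ESC, 56.9 to 223 on day 12 and 72.6 to 104 on day 21, and cortex libraries had 906 to 1095 at E13.5, then 430 to 514 at P0. That of 7 cortical neuron genes was 53.9 to 71.7, 76.6 to 293, 270 to 432, 712 to 1163 and 2184 to 2667 at the same stages. The cultures also carried 5 epithelial genes, at 2791 to 4261 CPM on day 12 and 3727 to 4678 on day 21, where E13.5 libraries had 3.98 to 21.5 and P0 libraries 0.704 to 4.40. The sum of 7 genes of meninges and mesenchyme was 1591 to 2479 on day 12 and 7088 to 11119 on day 21, where E13.5 libraries had 14.002 to 787 and P0 libraries 124 to 239. None of the epithelial or mesenchymal genes was at 0 over a whole stage. The part of these cells in the results below was not tested. In bulk RNA, fewer cells of a type and less RNA per cell cannot be told apart.

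Together the members took 171 ± 16.7 CPM in ESC, 915 ± 83.5 on day 12 and 1524 ± 208 on day 21 (SD, n = 4 each). Cortex libraries had 1175 ± 116 CPM at E13.5 (n = 6), then 3024 ± 340 at P0 (n = 7). The mean was highest at P0 for 64 of the 85 members, on day 21 for 18, in E13.5 tissue for 3 and in ESC or on day 12 for none. These counts include rows too low to be tested. The peak stages of all features were not counted, so whether this spread is particular to the members cannot be said. All 15 alpha rows and 21 of the 23 gamma rows were highest at P0. The day 21 peaks were 7 cadherins, 2 non-clustered protocadherins, 7 beta members and 2 gamma members. Some of these means rest on few read bases: no stage held more than 7 read bases of Cdh19 or of Pcdhb1, and none more than 65 of Cdh17 or 45 of Cdh26.

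**Figure D1:**
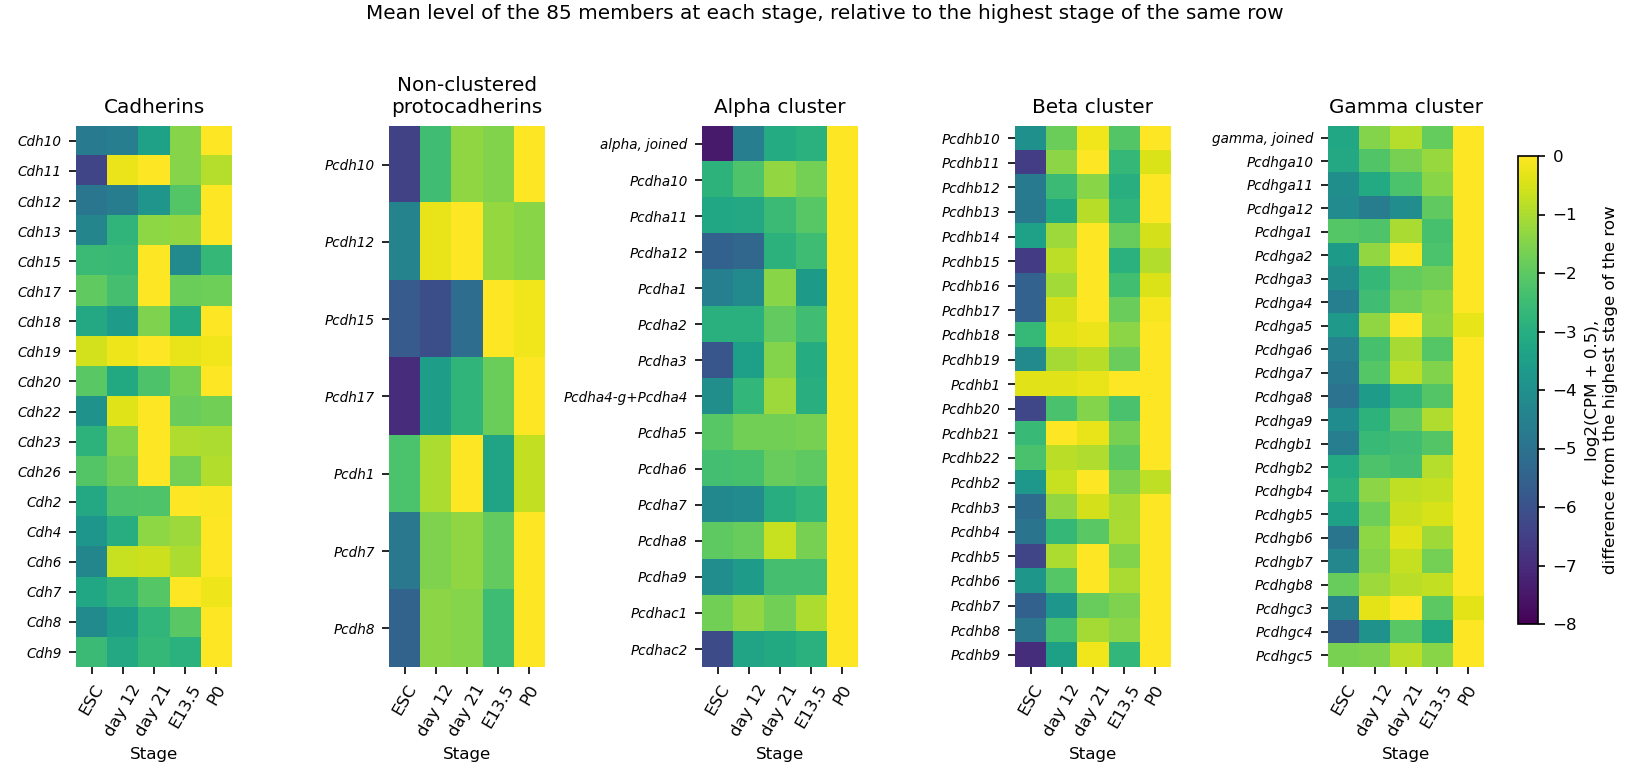
Mean level of each of the 85 members at the 5 stages, as log2(CPM + 0.5) minus the value of the highest stage in the same row. Yellow marks the highest stage of a row, so colours compare stages within a row only. All 15 alpha rows are yellow at P0, while Cdh11, Cdh15, Cdh22, Pcdh1 and Pcdh12 are yellow at day 21.

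Of the 24 members tested at day 12 against ESC, 23 passed as higher, where 41.0% of all features passed as higher, and 1 passed as lower, where 36.2% did. Of the 24, 6 averaged at least 20 read bases at both stages, all higher at day 12. A further 17 did so only at day 12, where they were high, and 1 only in ESC. Their directions follow from how they entered the test. The median log2 fold change was 4.66 for the members tested and 0.09 for all features. At day 21 against day 12, 39 of 52 members tested passed as higher, against 28.1% of all features, and none as lower, against 23.1%. Of the 36 of these that averaged at least 20 read bases on both days, 24 passed as higher. A further 16 did so only on day 21, 15 of them higher. At P0 against E13.5, 61 of 65 members passed as higher, against 36.5% of all features, and none as lower, against 39.0%. Of the 46 that averaged at least 20 read bases at both cortex stages, 42 passed as higher. A further 19 did so only at P0, all higher. Where members averaged 20 read bases only at the later stage, their directions follow from how they entered the test. The median log2 fold change at P0 against E13.5 was 1.86 for the members tested and -0.04 for all features. With female libraries alone the P0 count was again 61. No member passed as lower in either of these later comparisons, nor at an unadjusted p under 0.05 in the P0 comparison, where 61 of the 65 had such a p.

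Cdh2 was higher in every cortex library than in any culture library. It was 30.7, 37.7, 52.8 and 50.3 CPM in the ESC libraries, 82.6, 68.7, 69.7 and 104 at day 12, and 55.4, 83.8, 130 and 64.9 at day 21. In cortex the lowest, median and highest libraries had 355, 390 and 416 at E13.5 and 281, 401 and 440 at P0. ESC and day 12 libraries did not overlap, while day 12 overlapped day 21 and E13.5 overlapped P0. The log2 fold change was 0.76 at day 12 against ESC (SE 0.20, adjusted p = 0.00131), and with JB6 libraries alone it was 0.59 (adjusted p = 0.0819). Cdh2 did not pass at day 21 against day 12, with a log2 fold change of 0.00 (SE 0.20, adjusted p = 0.999), nor at P0 against E13.5, with 0.01 (SE 0.15, adjusted p = 0.977). At P0 the 4 BJ1 libraries lay at 401 to 440 and the 3 JB6 libraries at 281 to 352, a split whose exact permutation test cannot give a p below 0.0571.

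Cdh11, a cadherin of mesenchymal cells and osteoblasts that is also made in brain, was higher in culture than in cortex. It had 0.908, 0, 0.344 and 0.963 CPM in ESC, 49.2, 69.8, 72.5 and 90.9 at day 12, and 74.8, 83.0, 107 and 69.9 at day 21. The lowest, median and highest cortex libraries had 20.3, 30.3 and 39.6 at E13.5 and 36.2, 45.1 and 52.8 at P0. Every day 12 library was above every ESC and E13.5 library, and every day 21 library above every P0 library. The day 12 mean was 128-fold the ESC mean (log2 6.85, SE 0.32, adjusted p = 1.05e-15), from 12 read bases in ESC. Cdh11 entered this test only through day 12, and its direction follows from that. At E13.5, BJ1 replicates 1, 2 and 3 had 23.0, 20.3 and 30.7, and JB6 replicates 1, 2 and 3 had 30.0, 39.6 and 36.3. The mesenchymal marker sums of these libraries were, in the same order, 194, 14.002, 195, 382, 787 and 589 CPM. A link between Cdh11 and these sums was not tested. The rise at P0 against E13.5 was small, with a log2 fold change of 0.66 (SE 0.16, adjusted p = 0.000542), and with JB6 libraries alone it was 0.38 (adjusted p = 0.148).

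**Figure D2:**
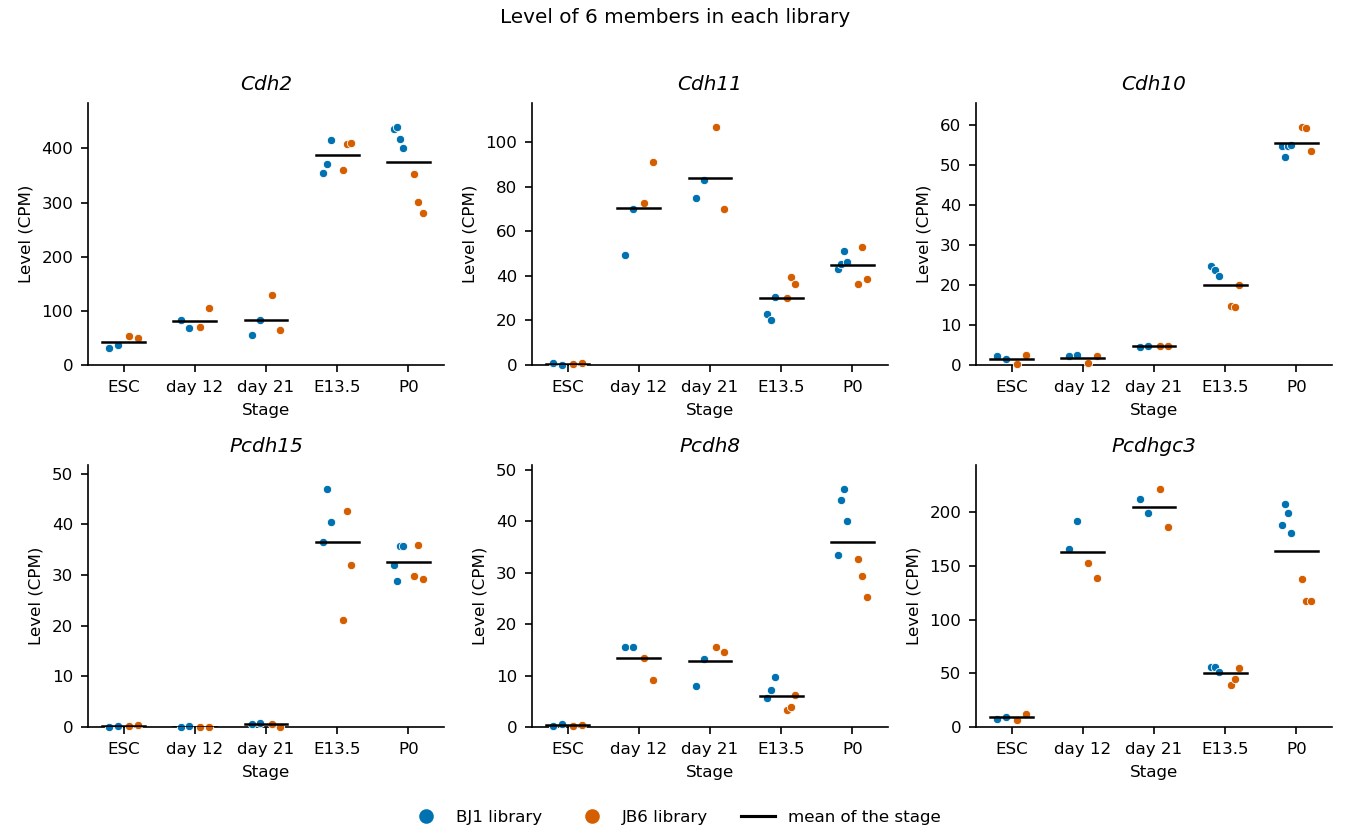
Level of Cdh2, Cdh11, Cdh10, Pcdh15, Pcdh8 and Pcdhgc3 in CPM, 1 point per library, with blue for BJ1, orange for JB6 and a bar at the mean of each stage. Each panel has its own axis from 0. Cdh2, Cdh10 and Pcdh15 are highest in cortex, Cdh11 is highest in culture, and Pcdhgc3 is high at both culture days and at P0.

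Cdh10, Cdh8, Cdh12 and Cdh18 are type II cadherins, and each was higher at P0 than at E13.5. Cdh10 had 2.28, 2.41, 0.464 and 2.20 CPM at day 12 and 4.50, 4.83, 4.74 and 4.82 at day 21. In cortex its lowest, median and highest libraries had 14.5, 21.1 and 24.6 at E13.5 and 51.9, 54.7 and 59.5 at P0, with no overlap between any of these 4 stages. The rise of Cdh10 was 1.35 at day 21 against day 12 (log2, SE 0.32, adjusted p = 0.00108) and 1.52 at P0 against E13.5 (SE 0.18, adjusted p = 2.71e-08). Cdh10 held 47 read bases over the day 12 libraries. It entered the culture test only through day 21, and its direction there follows from that. The mean level of Cdh8, Cdh12 and Cdh18 was higher at P0 than at E13.5 by 5.07-fold, 5.06-fold and 16.8-fold, the last from 17 read bases at E13.5. Cdh8, Cdh12 and Cdh18 averaged under 20 read bases at E13.5 and entered the test only through P0. Their directions follow from how they entered. Cdh12 reached 10.9 to 18.3 CPM at P0, against 1.77 to 3.90 at E13.5, and Cdh18 reached 5.48 to 8.83, against 0 to 0.943. Cdh6, which marks parts of the early cortex, had 8.73, 7.59, 7.89 and 8.35 at day 12, against 0.363, 0.153, 0 and 0.193 in ESC, a ratio of means of 45.9 that rests on 4 read bases in ESC.

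Other cadherins had patterns of their own. Cdh20 was the single member that passed as lower at day 12 than in ESC, with 2.47, 3.33, 1.08 and 1.97 CPM at day 12, against 5.09, 3.83, 6.53 and 5.97 in ESC (log2 -1.48, SE 0.34, adjusted p = 0.000321). The log2 value was -0.86 with BJ1 libraries alone and -2.16 with JB6 libraries alone. Without ESC JB6 replicate 1 it averaged under 20 read bases over the libraries left and was not tested. Cdh20 averaged at least 20 read bases only in ESC, where it was high, and its direction follows from that. Cdh20 then reached 20.8 to 26.0 at P0, against 3.90 to 9.74 at E13.5. Cdh15, the M-cadherin of skeletal muscle and cerebellum, had 15.0, 10.7, 16.1 and 3.86 at day 21, against 2.28, 3.15, 0.155 and 0.464 at day 12 (log2 3.00, SE 0.58, adjusted p = 0.000127). Its 4 day 21 libraries all lay above the 4 of day 12. Cdh15 held 34 read bases over the day 12 libraries. It entered this test only through day 21, and its direction follows from that. Cdh4, or R-cadherin, had 25.2, 37.2, 38.9 and 24.1 at day 21, against 7.97, 14.4, 6.96 and 9.40 at day 12, and 66.1 to 95.1 at P0, against 27.0 to 47.2 at E13.5. Its log2 change of 0.66 at day 12 against ESC passed (SE 0.24, adjusted p = 0.0135), but its adjusted p was 0.0598 without ESC BJ1 replicate 1, 0.0611 without ESC JB6 replicate 1 and 0.0852 without day 12 BJ1 replicate 2.

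Among the non-clustered protocadherins, Pcdh15 was detected almost only in cortex. Pcdh15 makes the lower part of the tip link of hair cells in the inner ear. It had 0, 0.306, 0.172 and 0.385 CPM in ESC, 0, 0.185, 0 and 0 at day 12, and 0.703, 0.806, 0.677 and 0 at day 21. Its lowest, median and highest libraries had 21.1, 38.4 and 47.0 at E13.5 and 28.9, 32.0 and 35.9 at P0. The 2 cortex stages overlapped and did not pass, with a log2 fold change of -0.13 (SE 0.17, adjusted p = 0.506). The culture values rest on 1 read base on day 12 and 15 on day 21, where the E13.5 libraries held 1397 and the P0 libraries 1447.

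Pcdh8, Pcdh10 and Pcdh17 belong to the delta-2 protocadherins, which act in axon growth and synapse remodelling. Pcdh8 had 15.6, 15.6, 13.455 and 9.17 CPM at day 12, against 0.182, 0.613, 0.172 and 0.385 in ESC, a ratio of means of 39.8 (log2 5.03, SE 0.39, adjusted p = 1.2e-11). Pcdh8 held 8 read bases over the ESC libraries. It entered this test only through day 12, and its direction follows from that. It did not pass at day 21, where it had 8.02, 13.3, 15.6 and 14.6 (log2 -0.02, SE 0.24, adjusted p = 0.942). In cortex it had 25.3, 33.4 and 46.3 at P0 as lowest, median and highest, against 3.37, 5.97 and 9.75 at E13.5 (log2 2.58, SE 0.20, adjusted p = 7.16e-12). Pcdh10 kept going up in culture, with 22.5, 27.9, 31.5 and 22.3 at day 21, against 9.68, 14.8, 9.12 and 13.2 at day 12 (log2 1.14, SE 0.22, adjusted p = 0.000129). Its cortex range was 57.0 to 82.7 at P0, against 14.02 to 32.7 at E13.5. Pcdh17 had 65.5 to 82.1 at P0, against 17.6 to 24.8 at E13.5, a ratio of means of 3.53 (log2 1.86, SE 0.14, adjusted p = 6.12e-12).

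Pcdh1 and Pcdh7 are delta-1 protocadherins, and Pcdh12 is a protocadherin of blood vessels. Pcdh1 had 27.7, 32.9, 28.8 and 29.6 CPM at day 21, against 19.2, 13.1, 18.9 and 8.47 at day 12, with no overlap (log2 1.00, SE 0.30, adjusted p = 0.00717). In cortex Pcdh1 had 11.8 to 20.8 at P0, against 1.18 to 3.62 at E13.5, a ratio of means of 7.17. Pcdh1 held 95 read bases over the E13.5 libraries and entered that test only through P0. Its direction there follows from how it entered. Pcdh7 had 17.1, 19.1, 21.7 and 18.4 at day 12, against 1.45, 0.919, 1.55 and 2.31 in ESC (log2 3.46, SE 0.22, adjusted p = 2.62e-13), and did not pass at day 21 (log2 0.22, SE 0.16, adjusted p = 0.271). Pcdh7 held 35 read bases over the ESC libraries. It entered the test against ESC only through day 12, and its direction there follows from that. Pcdh12 had 7.97, 9.63, 12.99 and 13.1 at day 12, against 3 read bases in all in ESC, and 1.33 to 9.88 at E13.5. It did not pass at P0 against E13.5 (log2 -0.01, SE 0.33, adjusted p = 0.975).

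As examples, the 250 bases before the RefSeq start of 4 members are printed, on build GRCm38.p6 and 5′ to 3′ on the strand of the gene, with every CG in capitals. The 4 were chosen after their levels were seen. Pcdh8 and Pcdh10 were higher at day 12 than in ESC. Pcdh15 and Cdh10 were lower in every culture library than in any cortex library, though Cdh10 rose between day 12 and day 21. RefSeq promoters matched 17 of the 82 members with a single symbol. Pcdh8 lies on the minus strand (chr14:79771313-79771562), and Pcdh10 (chr3:45378148-45378397), Pcdh15 (chr10:73821617-73821866) and Cdh10 (chr15:18820079-18820328) lie on the plus strand.
Pcdh8: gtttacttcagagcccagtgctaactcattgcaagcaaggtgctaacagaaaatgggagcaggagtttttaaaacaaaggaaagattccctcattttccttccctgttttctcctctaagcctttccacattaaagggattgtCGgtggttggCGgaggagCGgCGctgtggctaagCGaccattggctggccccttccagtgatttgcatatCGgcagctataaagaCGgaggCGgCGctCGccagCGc
Pcdh10: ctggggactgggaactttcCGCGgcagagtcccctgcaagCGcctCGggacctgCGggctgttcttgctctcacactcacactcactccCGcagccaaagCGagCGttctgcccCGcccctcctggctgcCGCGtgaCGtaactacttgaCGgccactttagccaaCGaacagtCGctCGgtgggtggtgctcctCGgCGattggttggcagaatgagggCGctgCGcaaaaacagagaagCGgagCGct
Pcdh15: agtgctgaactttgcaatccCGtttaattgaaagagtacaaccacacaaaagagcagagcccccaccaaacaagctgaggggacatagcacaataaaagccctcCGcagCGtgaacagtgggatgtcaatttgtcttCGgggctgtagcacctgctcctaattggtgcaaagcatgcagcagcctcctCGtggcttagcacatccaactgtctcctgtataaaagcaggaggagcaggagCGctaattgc
Cdh10: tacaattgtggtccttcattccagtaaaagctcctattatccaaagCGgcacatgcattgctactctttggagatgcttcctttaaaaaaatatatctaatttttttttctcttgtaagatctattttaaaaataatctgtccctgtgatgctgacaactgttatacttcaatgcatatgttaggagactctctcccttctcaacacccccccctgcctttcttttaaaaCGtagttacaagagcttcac
The CG count was 11 for Pcdh8, 22 for Pcdh10, 6 for Pcdh15 and 2 for Cdh10, and the median of 32851 promoters of the same length was 6. At least as many were found in 35.6% of promoters for Pcdh8, 14.8% for Pcdh10, 50.4% for Pcdh15 and 81.2% for Cdh10. These 4 counts describe the windows and were not tested against the levels.

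The 3 protocadherin clusters, all on chromosome 18, were compared by their summed levels with exact permutation tests over libraries, two-sided and adjusted over 15 comparisons. The beta sum was 0.363, 2.14, 0.687 and 2.70 CPM in ESC, 113, 194, 126 and 159 at day 12, and 325, 373, 403 and 262 at day 21. It was 87.3 to 133 at E13.5 and 367 to 441 at P0. Day 12 did not overlap ESC, day 21 did not overlap day 12, and P0 did not overlap E13.5. The mean on the log2(value + 0.5) scale was 84.7-fold higher at day 12 than in ESC and 2.32-fold higher at day 21 than at day 12, each with an adjusted p of 0.0357, whose unadjusted p of 0.0286 is the smallest that 4 against 4 libraries can give. Leaving out any 1 library of these comparisons leaves a design too small to pass.

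The alpha sum was nearly absent in ESC, at 0.908 to 1.54 CPM, and was 9.90 to 23.3 on day 12 and 31.8 to 80.8 on day 21. Cortex libraries had 28.3 to 54.9 at E13.5, then 281 to 346 at P0. It was 7.92-fold higher at P0 than at E13.5 (adjusted p = 0.00583, the smallest the exact test can give). The gamma sum was already present in ESC, at 87.1 to 116, and was 420 to 563 on day 12 and 731 to 821 on day 21. Cortex libraries had 337 to 452 at E13.5, then 1078 to 1622 at P0. It was 3.29-fold higher at P0 than at E13.5 and the beta sum 3.80-fold higher, at the same adjusted p. At P0 the BJ1 libraries lay above the JB6 libraries for all 3 sums, with 1400 to 1622 in BJ1 and 1078 to 1220 in JB6 for gamma, and the test of 4 against 3 cannot give a p below 0.0571.

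**Figure D3:**
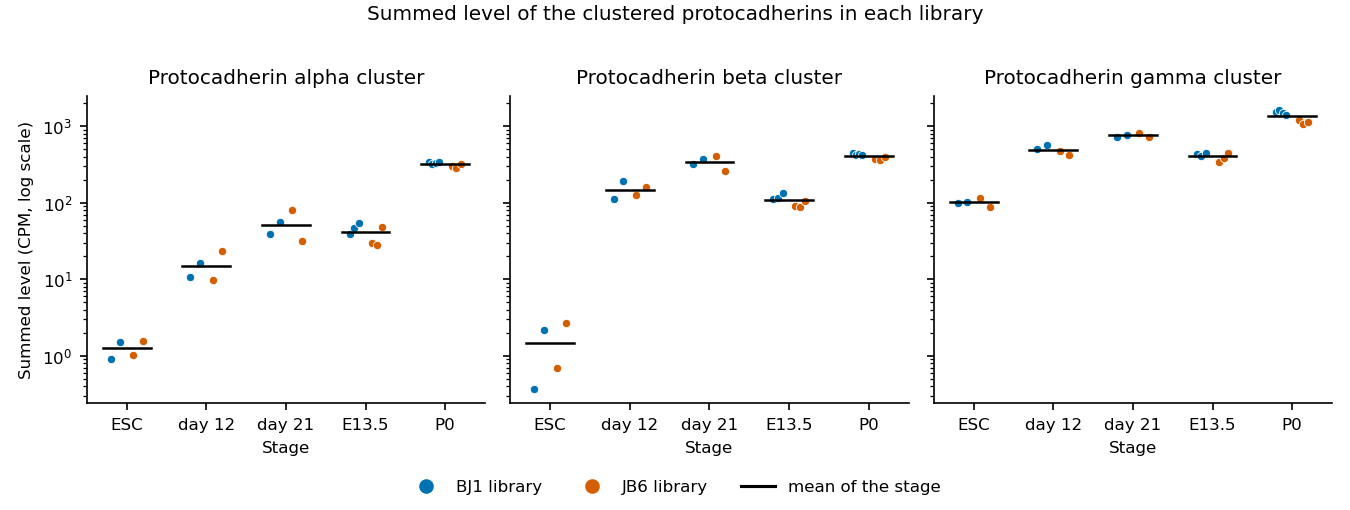
Summed level of the alpha, beta and gamma protocadherin clusters in CPM on a log axis, 1 point per library, with blue for BJ1, orange for JB6 and a bar at the mean of each stage. The alpha sum at P0, 281 to 346 CPM, stands above every other stage, while the beta sum at day 21, 262 to 403, reaches into the P0 range of 367 to 441.

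Of the beta members, 7 were tested at day 12 against ESC, and all passed as higher, where 41.0% of all features did. They held 0 to 5 read bases each over the 4 ESC libraries and entered the test only through day 12, so this count says nothing about the family. Pcdhb15 had no read base in any ESC library and 22.02, 24.8, 24.1 and 38.1 CPM at day 12, which is at least 219-fold higher against a floor of 3 read bases over the ESC group (edgeR's quasi-likelihood test with Benjamini-Hochberg adjustment, adjusted p = 3.29e-13). Pcdhb11, Pcdhb17 and Pcdhb16 were also at 0 in every ESC library and were at least 133-fold, 118-fold and 76.7-fold higher at day 12. Pcdhb5 had 1 read base in ESC and 19.9, 27.4, 18.4 and 21.2 CPM at day 12 (adjusted p = 2.48e-16). At day 21 against day 12, 14 of 18 beta members passed as higher, where 28.1% of all features did, and 8 of the 11 that averaged at least 20 read bases on both days. Pcdhb9 had 61.6, 68.6, 55.1 and 34.1 CPM at day 21, against 4.18, 7.22, 3.71 and 5.69 at day 12, a ratio of means of 10.6 (log2 3.36, SE 0.18, adjusted p = 2.21e-12). Pcdhb13, Pcdhb6 and Pcdhb7 were 6.59-fold, 5.37-fold and 5.13-fold higher at day 21. These members held 26, 38 and 31 read bases over the day 12 libraries. They entered the test only through day 21, and their directions follow from that. Pcdhb9 thus took 16.004% of the single-gene beta read bases at day 21, against 3.48% at day 12. All 17 beta members tested at P0 against E13.5 passed as higher, where 36.5% of all features did, and 12 of them averaged at least 20 read bases at both stages. Pcdhb12 was at 10.96 to 15.7 CPM at P0, against 0.696 to 1.59 at E13.5 (log2 3.42, SE 0.28, adjusted p = 7.85e-11). Pcdhb12 held 45 read bases over the E13.5 libraries. It entered the test only through P0, and its direction follows from that.

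No alpha row averaged 20 read bases over the day 12 and ESC libraries. At day 21 against day 12, 2 of 3 passed as higher, where 28.1% of all features did. Pcdha3 had 9.84, 16.5, 18.6 and 6.75 CPM at day 21, against 1.90, 4.26, 0.773 and 4.53 at day 12 (edgeR's quasi-likelihood test with Benjamini-Hochberg adjustment, log2 2.11, SE 0.38, adjusted p = 4.71e-05). Pcdha3 held 77 read bases over the day 12 libraries. It entered this test only through day 21, and its direction follows from that. All 8 alpha rows tested at P0 against E13.5 passed as higher, where 36.5% of all features did, but 4 of them averaged 20 read bases only at P0, where they were high. Pcdha1 had 8.08 to 14.1 at P0, against 0 to 0.943 at E13.5 (log2 4.63, SE 0.38, adjusted p = 1.04e-10, from 17 read bases at E13.5). The row that joins Pcdha4-g with Pcdha4 was 13.4-fold and Pcdha3 9.17-fold higher by ratio of means. Pcdha1 and the row that joins Pcdha4-g with Pcdha4 were among the 4 that entered only through P0, so their directions follow from that. The joined alpha row, which collects read bases that 14 alpha names share, had 126 to 151 at P0, against 9.89 to 27.5 at E13.5. Within the single-gene alpha read bases, Pcdha3 took 36.2 ± 3.87% at day 21 (SD, n = 4) and 20.8 ± 3.23% at P0 (n = 7), and Pcdhac2, a C-type isoform, took 15.1 ± 4.92% and 26.2 ± 2.56%.

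In the gamma cluster the joined row, shared by 22 names, had 202 to 261 CPM at day 12, against 40.6 to 93.3 in ESC, and 543 to 758 at P0, against 141 to 201 at E13.5. By edgeR's quasi-likelihood test with Benjamini-Hochberg adjustment, all 7 gamma rows tested at day 12 against ESC passed as higher (41.0% of all features), 3 of which averaged at least 20 read bases at both stages. At day 21 against day 12 it was 15 of 16 (28.1% of all features), and 11 of the 12 that did so on both days. At P0 against E13.5 it was all 22 (36.5% of all features), 16 of which did so at both stages. Pcdhgc3, a C-type isoform that is widely expressed, had 166, 192, 153 and 139 CPM at day 12, against 7.63, 9.19, 6.87 and 12.3 in ESC (log2 4.00, SE 0.16, adjusted p = 9.88e-17). Its day 21 libraries had 212, 199.6, 222 and 186, a further log2 change of 0.34 (SE 0.14, adjusted p = 0.0363) that was lost in 11 alternative settings, 6 of which leave out 1 library. In cortex it had 117 to 208 at P0, against 39.2 to 56.2 at E13.5. Pcdhgc4, which neurons need to survive, had 18.3 to 28.4 at P0, against 0.710 to 2.83 at E13.5 (log2 3.51, SE 0.22, adjusted p = 1.27e-12), and 3.66, 6.58, 6.60 and 4.50 at day 21, against 1.71, 0.741, 1.08 and 0.928 at day 12. Pcdhgc4 held 80 read bases over the E13.5 libraries and 28 over the day 12 libraries. It entered both tests only through the later stage, and its directions follow from that.

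The share of Pcdhgc3 among single-gene gamma read bases set the culture apart. It was 27.8, 27.6, 30.8 and 26.6% in ESC, 62.1, 63.6, 62.9 and 63.7% at day 12, and 51.9, 50.5, 51.4 and 47.8% on day 21. Cortex libraries had 18.6 to 23.5% at E13.5, then 20.6 to 25.2% at P0. The share was 34.9 percentage points higher at day 12 than in ESC and 12.7 points lower at day 21 than at day 12, written as a difference of -12.7 (exact permutation tests, two-sided, adjusted p = 0.0357 for both). It was 41.8 points higher at day 12 than at E13.5 and 27.4 points higher at day 21 than at P0 (adjusted p = 0.0238 for both). The difference of 1.69 points at P0 against E13.5 did not pass (adjusted p = 0.0932). Pcdhga12 had the reverse pattern, with 0.800 ± 0.725% on day 12 and 0.794 ± 0.167% on day 21 (SD, n = 4 each), where the E13.5 libraries averaged 6.68 ± 2.05% (n = 6) and the P0 libraries 8.92 ± 0.459% (n = 7).

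Between culture and cortex, members passed in both directions at both ages, by edgeR's quasi-likelihood test with Benjamini-Hochberg adjustment. At day 12 against E13.5, 15 of 44 members passed as higher, where 37.2% of all features did, and 21 as lower, where 42.4% did. Both counts were thus near the shares of all features. Of the 44, 30 averaged at least 20 read bases at both stages, 11 of them higher and 12 lower. A further 4 did so only at day 12, all higher, and 10 only at E13.5, 9 of them lower. Higher in culture were Pcdh1 (6.01-fold by ratio of means), Pcdhb15 (4.54-fold), Pcdhgc3 (3.23-fold), Cdh22 (3.19-fold), Pcdhb16 (2.71-fold) and Pcdhb17 (2.60-fold). Lower were Cdh7 (14.1-fold), Pcdha12 (13.7-fold), Cdh10 (10.8-fold), Pcdhga12 (7.51-fold), Pcdhb7 (6.45-fold) and Cdh2 (4.76-fold). Pcdh15 had the lowest log2 value, -9.18 (SE 0.47, adjusted p = 4.3e-15), and with 1 read base at day 12 no fold is given. Of the members named, Pcdh1 and Cdh22 entered the test only through day 12. Cdh7, Pcdha12, Cdh10, Pcdhga12, Pcdhb7 and Pcdh15 entered only through E13.5. The directions of these members follow from how they entered the test. Cdh7 and Cdh22 are type II cadherins, Cdh7 with 4.13 to 7.24 CPM at E13.5.

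At day 21 against P0, 11 of 69 members passed as higher, where 40.2% of all features did, and 49 as lower, where 40.5% did. Without day 21 JB6 replicate 1 the higher count was 7. Of the 69, 56 averaged at least 20 read bases at both stages, 8 of them higher and 39 lower. A further 3 did so only at day 21, all higher, and 10 only at P0, all lower. Cdh15 had 3.86 to 16.1 CPM at day 21, against 0.528 to 2.94 at P0 (edgeR's quasi-likelihood test with Benjamini-Hochberg adjustment, log2 2.99, SE 0.47, adjusted p = 2.55e-06). Cdh22 had 6.75, 8.99, 8.79 and 8.52 at day 21, against 1.41 to 3.97 at P0 (log2 1.91, SE 0.38, adjusted p = 5.81e-05). Pcdh12, Cdh23, Pcdhb15 and Cdh11 were 2.88-fold, 2.17-fold, 1.92-fold and 1.87-fold higher by ratio of means, and Cdh23 did not pass without day 21 JB6 replicate 1 (log2 0.51, adjusted p = 0.171). Pcdh15, Cdh12, Pcdhga12, Pcdha7, Cdh10 and Cdh8 were the furthest below P0, at 59.5-fold, 26.5-fold, 19.5-fold, 13.4-fold, 11.7-fold and 9.86-fold lower. Cdh2 was 4.50-fold lower. Of the members named, Cdh15, Cdh22 and Cdh23 entered the test only through day 21, and Pcdh15, Cdh12, Pcdha7 and Cdh8 only through P0. The directions of these members follow from how they entered. By family, 10 of 14 cadherins, 5 of 7 non-clustered protocadherins, 8 of 8 alpha, 8 of 18 beta and 18 of 22 gamma rows passed as lower. Among rows at the floor in both stages it was, in this order, 6 of 7, 4 of 6, 6 of 6, 8 of 18 and 15 of 19. The epithelial and mesenchymal marker sums given above stand beside these differences, and their part in them was not tested.

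**Figure D4:**
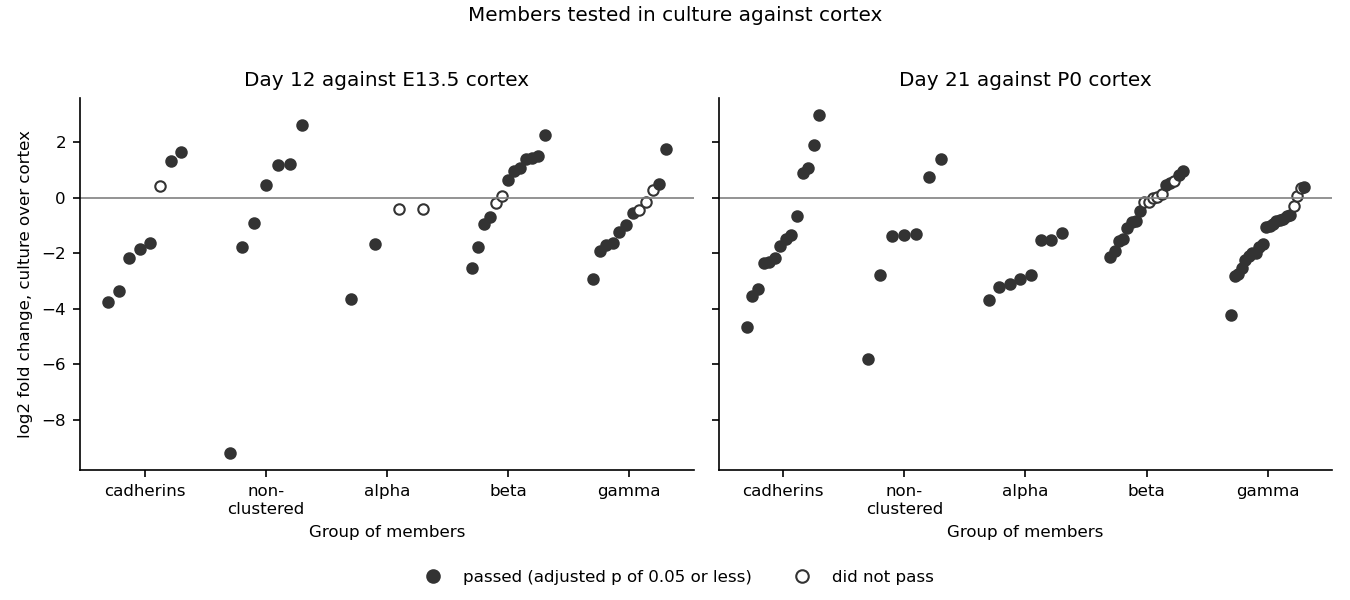
Log2 fold change of each member tested, day 12 over E13.5 on the left and day 21 over P0 on the right, by family. Filled points passed at an adjusted p of 0.05 and open points did not. All 8 alpha rows lie below 0 at day 21 against P0, and Pcdh15 is the lowest point of both panels.

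The change in culture between day 12 and day 21 was set against the change in cortex between E13.5 and P0 in 1 test. Of 67 members, 5 had a higher change in culture, where 25.4% of all features did, and 25 a lower one, where 20% did. Pcdh8 changed by -0.02 in culture and 2.58 in cortex, a difference of -2.60 (log2, SE 0.31; edgeR's quasi-likelihood test with Benjamini-Hochberg adjustment, adjusted p = 1.53e-07). Pcdhac2 differed by -2.82 (SE 0.31, adjusted p = 5.28e-08) and Pcdh7 by -1.75 (SE 0.21, adjusted p = 1.55e-07). Pcdhgc3 differed by -1.36 (SE 0.17, adjusted p = 5.49e-07). Leaving out 1 library took the higher count to between 1 and 6. It was 3 without day 12 BJ1 replicate 1, E13.5 BJ1 replicate 2 or E13.5 JB6 replicate 2, 2 without E13.5 BJ1 replicate 3 or E13.5 JB6 replicate 3, and 1 without day 21 JB6 replicate 1.

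The alleles were compared within libraries, with the parent and the strain of each allele as separate terms. Intervals given for single libraries are 95% Wilson intervals. They cover counting error only, and read bases of 1 read are not independent. By parent of origin, 1 of 36 members passed at day 12, where 1.78% of all features did, by edgeR's quasi-likelihood test with Benjamini-Hochberg adjustment. That member was Pcdhb17, with a maternal share of 38.7 ± 3.00% (SD, n = 4), a log2 ratio of -0.66 (SE 0.20, adjusted p = 0.0424), and it did not pass in any of 7 alternative settings. None of 7 members passed in ESC (1.4% of all features), none of 59 at day 21 (1.38%), none of 46 at E13.5 (0.49%) and none of 70 at P0 (0.548%). At an unadjusted p under 0.05 there were 1, 3, 6 and 5 members at these stages, and DESeq2 and limma called none.

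By strain, 2 of 7 members passed in ESC, both with less B6 than JF1, where 18.5% of all features passed as B6 lower. None passed as B6 higher, where 26.1% of all features did, and 1 did without ESC BJ1 replicate 2. The share of B6 read bases of Cdh2 was 22.5% (16.8 to 29.4), 21.5% (16.9 to 27.1), 25.1% (20.6 to 30.2) and 24.1% (19.3 to 29.7) in the 4 ESC libraries, the first 2 BJ1 and the others JB6. It averaged 46.3 ± 2.43% on day 12 and 46.6 ± 2.71% on day 21 (SD, n = 4 each). Among cortex libraries it averaged 50.6 ± 1.86% at E13.5 (n = 6), then 51.1 ± 1.45% at P0 (n = 7). The low ESC share was thus in both crosses, whichever parent was B6, and its libraries did not overlap those of any other stage. The log2 ratio of B6 over JF1 was -1.72 in ESC (SE 0.12; edgeR's quasi-likelihood test with Benjamini-Hochberg adjustment, adjusted p = 1.68e-11). In a test added after the values were seen, it was 1.51 higher at day 12 than in ESC (SE 0.15, adjusted p = 2.29e-09). Cdh2 was the single member called among 6 tested, where 8.73% of all features passed as higher and 10.6% as lower, and 1 passed as lower without ESC BJ1 replicate 2. Cdh20 had 0, 0, 5.26 and 9.68% in ESC, from 25 to 38 read bases per library. A count of 0 among 28 and 25 read bases gave intervals up to 12.1 and 13.3%.

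Pcdh15 had a low B6 share at E13.5 and not at P0. It was 8.46 to 22.7% in the 6 E13.5 libraries, from 119 to 319 read bases each, and averaged 52.5 ± 5.37% at P0 (SD, n = 7), against 14.1 ± 5.25% at E13.5 (n = 6). The P0 libraries, 46.3 to 60.2%, did not overlap the E13.5 libraries. At E13.5 the 3 BJ1 libraries averaged 10.1% and the 3 JB6 libraries 18.0%. The difference in the log2 ratio of B6 over JF1 was 2.84 at P0 against E13.5 (SE 0.16; edgeR's quasi-likelihood test with Benjamini-Hochberg adjustment, adjusted p = 8.48e-20), where 6.97% of all features passed as higher and 6.34% as lower. Of 46 members, 5 passed as higher and 3 as lower. The higher count was 3 without E13.5 JB6 replicate 1, and the lower count 1 without E13.5 BJ1 replicate 2. The level of Pcdh15 summed over both alleles did not pass between these stages, as given above.

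**Figure D5:**
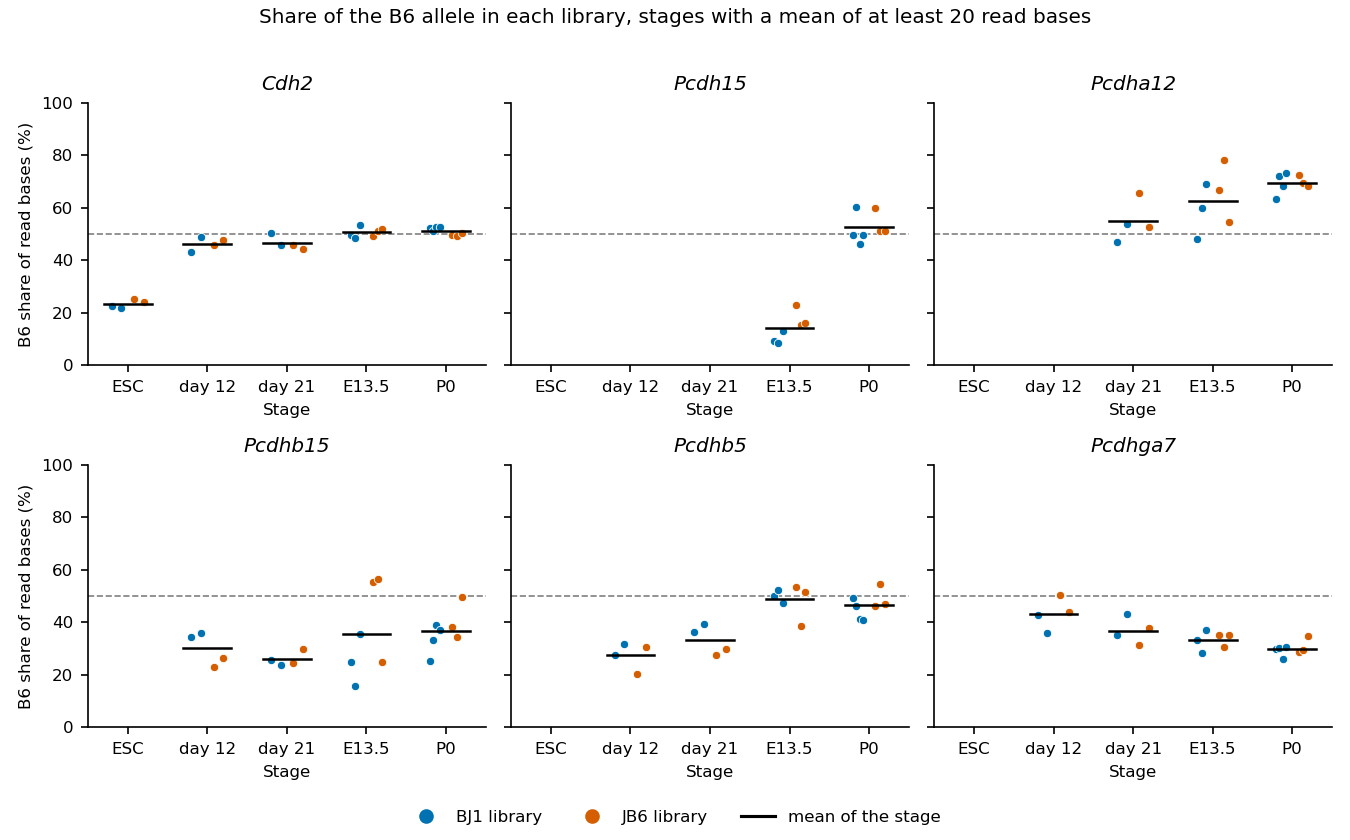
Share of B6 read bases in percent for Cdh2, Pcdh15, Pcdha12, Pcdhb15, Pcdhb5 and Pcdhga7 by stage, 1 point per library, with blue for BJ1 and orange for JB6, and a dashed line at equal shares. Cdh2 stands at 21.5 to 25.1% in ESC only, and Pcdh15 at 8.46 to 22.7% at E13.5 only, among the stages drawn.

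Strain ratios of the members were called in both directions. At day 12, 3 of 36 members passed as B6 higher, where 20.5% of all features did, and 10 as B6 lower, where 15.4% did. On day 21, 6 of 59 were B6 higher (19.6% of all features) and 17 B6 lower (14.8%). Without day 12 JB6 replicate 2 the day 12 counts were 1 higher and 4 lower, without day 12 JB6 replicate 1 the lower count was 6, and DESeq2 gave 1 and 5. The day 21 higher count was 1 without day 21 BJ1 replicate 1, without day 21 JB6 replicate 1, and by DESeq2. In E13.5 tissue, 6 of 46 were B6 higher (28.1%) and 8 B6 lower (17.8%), and in P0 cortex, 21 of 70 were B6 higher (29.2%) and 12 B6 lower (19%). The E13.5 lower count was 5 without E13.5 JB6 replicate 3. Pcdhb15 had a B6 share of 34.5, 35.8, 23.1 and 26.5% in the day 12 libraries and 25.7, 23.7, 24.4 and 29.6% at day 21. It averaged 35.5 ± 16.997% in the E13.5 libraries (SD, n = 6) and 36.6 ± 7.35% in the P0 libraries (n = 7). Pcdhb5 averaged 27.5 ± 5.21% on day 12 and 33.2 ± 5.48% on day 21 (n = 4 each), where the E13.5 libraries averaged 48.8 ± 5.49% and the P0 libraries 46.5 ± 4.74%. Pcdhga7 averaged 29.9 ± 2.66% at P0 and was below 50% in 7 of 7 libraries, and Pcdha12 averaged 69.6 ± 3.44% and was above 50% in 7 of 7. Pcdha2 averaged 82.0 ± 11.3% and Pcdhgb8 20.2 ± 10.9% at P0, from 11 to 36 and 25 to 38 read bases per library. The strain term includes any mapping bias toward the B6 reference.

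In edgeR's quasi-likelihood test with Benjamini-Hochberg adjustment, 3 of 56 members had a higher and 14 a lower log2 ratio of B6 over JF1 at day 21 than at P0, where 8.34% of all features passed as higher and 11.3% as lower, and the other 39 did not pass. Without day 21 BJ1 replicate 1, BJ1 replicate 2 or JB6 replicate 2 the higher count was 1, and without day 21 BJ1 replicate 2 the lower count was 9. At day 12 against E13.5, 3 were higher and 4 lower of 30, where 7.1% of all features passed as higher and 9.35% as lower, and the other 23 did not pass. The higher count was 1 without day 12 BJ1 replicate 1, day 12 BJ1 replicate 2, day 12 JB6 replicate 2 or E13.5 JB6 replicate 3. Pcdhb11 had 34.5 ± 5.41% at day 21 (SD, n = 4) and 54.1 ± 4.98% at P0 (n = 7), a difference in the log2 ratio of -1.12 (SE 0.15, adjusted p = 3.11e-07). Pcdh10 had 38.4 ± 3.91% at day 21 and 53.4 ± 1.89% at P0 (log2 -0.88, SE 0.13, adjusted p = 3.01e-06). Pcdhb8 differed by -1.63 (SE 0.27, adjusted p = 1.24e-05) and Pcdhgb5 by -1.34 (SE 0.25, adjusted p = 0.000121). None of 36 members passed at day 21 against day 12 in either direction (1.08% of all features passed as higher and 1.2% as lower), with 2 at an unadjusted p under 0.05, and no other tool was run on this difference. Per the deposited description the B6 parent of the cultured lines was of mixed background with CBA, which cannot be told apart from culture in these comparisons.

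Genes that work with the members were read from fixed lists, by edgeR's quasi-likelihood test with Benjamini-Hochberg adjustment. Of 10 catenins and related partners tested at day 12 against ESC, 6 passed as higher, where 41.0% of all features did, and 2 as lower, where 36.2% did. Ctnna2, the neuronal alpha-catenin, averaged 22.6 ± 10.3 CPM at day 12 and 0.362 ± 0.231 in ESC (SD, n = 4 each). In ESC this was under 20 read bases per library. Ctnna2 entered the test only through day 12, and its direction follows from that. At P0 against E13.5, 4 of 8 passed as higher (36.5% of all features) and 3 as lower (39.0%). Ctnna1, the epithelial alpha-catenin, averaged 81.0 ± 6.63 at P0 and 336 ± 36.6 at E13.5. Of 11 regulators of the protocadherin clusters, 1 passed as higher and 7 as lower at day 12 against ESC, and none as higher and 10 as lower at P0 against E13.5, where the shares of all features are those just given. Dnmt3b, a DNA methyltransferase that acts at cluster promoters, averaged 50.4 ± 11.9 at day 12 and 1259 ± 549 in ESC (log2 -4.79, SE 0.24, adjusted p = 2.6e-15), while Dnmt3a averaged 158 ± 17.7 and 67.7 ± 16.005. Smchd1, a repressor of the clusters, averaged 46.3 ± 6.14 at P0 and 110 ± 11.01 at E13.5 (log2 -1.20, SE 0.14, adjusted p = 1.07e-08).

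All 6 repressors of Cdh1 tested passed as higher at day 12 than in ESC, where 41.0% of all features did, and at day 21 against day 12 none of 6 passed as higher (28.1% of all features) and 3 as lower (23.1%). Twist1, a mesenchymal regulator, averaged 184 ± 19.01 at day 12 and 5.06 ± 1.66 in ESC, and 80.4 ± 11.4 at day 21 against 1.03 ± 0.468 at P0. Against P0, where it averaged under 20 read bases, Twist1 entered only through day 21, and that direction follows from how it entered. Of 11 genes of protocadherin signalling and processing, 8 passed as higher (36.5% of all features) and 1 as lower (39.0%) at P0 against E13.5, and 1 as higher (40.2%) and 8 as lower (40.5%) at day 21 against P0. Ptk2b, the kinase Pyk2 that clustered protocadherins bind, averaged 105 ± 12.1 at P0 and 0.966 ± 0.870 at E13.5 (edgeR's quasi-likelihood test with Benjamini-Hochberg adjustment, log2 6.75, SE 0.35, adjusted p = 6.83e-15). Ptk2b averaged under 20 read bases at E13.5 and entered the test only through P0, so its direction follows from that. Of the atypical and desmosomal cadherins, 7 of 12 passed as higher and 2 as lower at day 12 against ESC, and 7 of 19 as higher and 10 as lower at day 21 against P0, against the shares of all features just given for these comparisons. Fat4, a giant cadherin, averaged 80.1 ± 25.3 at day 12 and 0.225 ± 0.183 in ESC, and Dsc2, a desmosomal cadherin, averaged 118 ± 27.2 at day 21. Fat4 averaged under 20 read bases in ESC and entered that test only through day 12, so its direction follows from that.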

How the data were processed

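The authors deposited 1 table of counts per stage, of sense read bases at strain differences on the maternal and the paternal allele of each gene. Per the submitters' processing notes, CASAVA 1.8.2, Novoalign, HTSeq, edgeR and SAMtools mpileup 0.1.18 were used on mm9, and per the labels a stranded mRNA kit was used. A read that covers several strain differences is counted at each, so counts exceed reads.

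From the counts, both alleles were summed. Levels were tested with edgeR 4.0.16 (limma 3.58.1, R 4.3.3) by its robust quasi-likelihood test, with TMM scaling, stage and cross as terms, all 25 hybrid libraries in 1 fit, a floor of 20 read bases on average over the stages compared, 0 for features a table did not list, and Benjamini-Hochberg adjustment over all features at 0.05. Alleles were tested within a stage with library, strain and parent as terms. Cluster sums were tested by exact permutation in Python 3.11.15 with scipy 1.17.1, numpy 2.4.6 and pandas 2.3.3, with a pseudocount of 0.5. Figures were drawn with matplotlib 3.10.9. DESeq2 1.42.0, limma, other floors and scalings, single crosses, counts divided by 3 and leaving out each library were the alternatives. The tests were checked on simulated counts, where 4-fold changes were recovered in 98 to 100% of cases per comparison. Simulated 2-fold changes were recovered in 71.4 to 96.0% in the expression comparisons, 80 to 100% in the allele tests within a stage and 59 to 90% in the strain change tests, lowest at day 21 against day 12. These percentages are for all features, and recovery among the members alone was not tested. In the allele tests, the members had fewer read bases per library than all features at every stage. The medians were 32.8 against 191 in ESC, 61.1 against 209 on day 12 and 131 against 210 at P0. The depth per library limits the precision of every share.

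Members named in full are Cdh2, the joined rows, up to 6 passing members per direction and expression comparison, 4 per direction for the difference of changes and for strain, every one passing by parent, and up to 3 listed genes per direction, of which a selection is printed. The members and lists were chosen with earlier results of these data known. The test of a strain change between stages, the Pcdhgc3 share and the female-only fit were added after the data were seen. The E14 libraries were not analysed here.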

Additional observations from a re-analysis of the deposited data

Results flagged for a closer look

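In 3 of 114 sets of 4 to 10 libraries, 1 library stood far from the others of its stage, where chance gives about 1 in 20. Cdh23 had 12.0 CPM (counts of read bases scaled to 1000000 in the library) in day 21 JB6 replicate 1, where the other libraries had 3.76 to 4.50. Pcdhb12 had 7.27 in the same library, where the others had 3.23 to 3.49. Pcdhb11 had 3.89 in E13.5 JB6 replicate 2, where the others had 6.68 to 8.25.

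For 30 of 67 members the log2 change in culture, day 21 against day 12, differed from that in cortex, P0 against E13.5, by edgeR's quasi-likelihood test with Benjamini-Hochberg adjustment, and the 4 named in each direction are given here. The difference was 3.39 for Pcdh15 (adjusted p = 0.00381), which had 15 read bases at day 21 and 1 at day 12, and with JB6 libraries alone its adjusted p was 0.137. It was 1.73 for Cdh23 (adjusted p = 0.00933), 1.43 for Cdh7 (adjusted p = 0.0187) and 1.25 for Pcdhb6 (adjusted p = 0.0169). The Cdh7 call was lost in 9 of 30 alternative settings, among them DESeq2 and counts divided by 3, and the Pcdhb6 call in 8 of 31. It was -2.82 for Pcdhac2 (adjusted p = 5.28e-08), -2.60 for Pcdh8 (adjusted p = 1.53e-07), -2.18 for Pcdhb12 (adjusted p = 0.000312) and -2.09 for Pcdhgb1 (adjusted p = 1.13e-05).

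The log2 ratio of B6 over JF1 differed between stages in the same kind of test. Between day 12 and ESC the difference was 1.51 for Cdh2 (adjusted p = 2.29e-09). Between P0 and E13.5 it was 2.84 for Pcdh15 (adjusted p = 8.48e-20), 0.75 for Pcdhb3 (adjusted p = 0.00458), -0.94 for Pcdhgb7 (adjusted p = 0.00389) and -0.88 for Pcdhac2 (adjusted p = 0.0121). Between day 12 and E13.5 it was 0.98 for Pcdh8 (adjusted p = 0.0236), 0.73 for Pcdhga11 (adjusted p = 0.0332), -1.61 for Cdh6 (adjusted p = 0.00176) and -1.29 for Pcdhb5 (adjusted p = 1.89e-05). Between day 21 and P0 it was 0.75 for Pcdhgc4 (adjusted p = 0.0451), 0.45 for Pcdhga7 (adjusted p = 0.00512), -1.63 for Pcdhb8 (adjusted p = 1.24e-05) and -1.45 for Pcdhga8 (adjusted p = 0.000803). Of these calls, that of Pcdhgc4 was lost in 10 of 12 alternative settings, that of Pcdhga11 in 7 of 11, that of Pcdh8 in 4 of 11, that of Pcdhac2 in 3 of 14 and that of Pcdhga7 in 3 of 13.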

How the results depend on the processing

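Over single members, 5492 of 5695 alternative values of expression calls kept direction and call, 203 lost the call and 0 reversed. For strain these were 672, 175 and 0 of 847, and for strain change 310, 106 and 0 of 416. The cause was not tested except where fewer members or libraries entered. With no floor, day 12 against ESC gave 59 members higher and 2 lower, day 21 against day 12 gave 1 lower, and day 12 against E13.5 gave 33 lower. BJ1 libraries alone gave 7 higher at day 21 against P0. For the difference of changes the higher count was 3 with DESeq2, 2 with BJ1 and 1 with JB6 libraries alone, and the lower count 11 with JB6.

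Replicate numbers were shared by the groups, but only 2 of 22 pairs had a correlation of deviations over 0.1 (-0.373 to 0.142). Between culture stages both pairs of a cross gave the same value by construction, because the deviations of 2 libraries mirror each other. The other pairs joined the cortex ages, or culture with cortex, which cannot be the same culture or animal. The check could thus decide little, and the numbers were not taken to pair the samples. With the replicate block, higher and lower counts were 20 and 1 at day 12 against ESC, 35 and 0 at day 21 against day 12, 61 and 0 at P0 against E13.5, 15 and 18 at day 12 against E13.5, 12 and 48 at day 21 against P0, and 1 and 22 for the difference of changes.

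Parent calls at day 12 fell to 0 with DESeq2, limma, a floor of 100 and counts divided by 3. Strain calls, higher and lower, were 1 and 5 (DESeq2), 1 and 3 (limma), 0 and 5 (floor of 100) and 1 and 5 (counts divided by 3) at day 12. They were 1 and 10 (DESeq2), 3 higher (limma), 2 and 7 (floor) and 2 higher (divided) at day 21, and 3 and 3 (DESeq2), 2 and 4 (floor) and 5 lower (divided) at E13.5. A floor of 100 left 1 lower in ESC and 6 lower at P0. Strain change calls were 1 and 0 (divided) and 2 and 0 (floor) at P0 against E13.5, 0 and 2 and 1 and 1 at day 12 against E13.5, and 0 and 7 and, by floor, 8 lower at day 21 against P0.

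The beta sum at day 21 against P0 passed with levels scaled to non-mitochondrial read bases, at -0.31 (adjusted p = 0.0152 by the exact permutation test), and with TMM scaling, at -0.24 (adjusted p = 0.0325). With TMM scaling, day 12 against E13.5 passed for beta at 0.52 (adjusted p = 0.0476) and for gamma at 0.33 (adjusted p = 0.0325). As a share of all gamma read bases, Pcdhgc3 differed by -0.316 points at P0 against E13.5 (adjusted p = 0.596), a reversed sign.

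Leaving out 1 library at a time gave 22 to 27 higher and 0 to 1 lower at day 12 against ESC, 34 to 41 and 0 at day 21 against day 12, 61 and 0 at P0 against E13.5, 14 to 17 and 20 to 24 at day 12 against E13.5, 7 to 11 and 45 to 50 at day 21 against P0, and 1 to 6 and 22 to 31 for the difference of changes. Strain counts were 0 to 1 and 2 in ESC, 1 to 4 and 4 to 8 at day 12, 1 to 4 and 12 to 13 at day 21, 5 to 7 and 5 to 8 at E13.5, and 17 to 20 and 10 to 14 at P0. Parent counts were 0 to 0 at day 12 and 0 to 1 lower at E13.5. Strain change counts were 1 and 0 to 1 at day 12 against ESC, 3 to 6 and 1 to 3 at P0 against E13.5, 1 to 3 and 3 to 5 at day 12 against E13.5, and 1 to 3 and 9 to 13 at day 21 against P0. In the order day 12 against ESC, day 21 against day 12, P0 against E13.5, day 12 against E13.5 and day 21 against P0, log2 differences of the sums were 2.87 to 3.26, 1.49 to 1.96, 2.89 to 3.08, -1.68 to -1.28 and -2.94 to -2.50 for alpha. For beta they were 6.07 to 6.70, 1.10 to 1.35, 1.87 to 1.99, 0.31 to 0.56 and -0.35 to -0.14, and for gamma 2.20 to 2.34, 0.57 to 0.71, 1.66 to 1.77, 0.18 to 0.33 and -0.88 to -0.78. The Pcdhgc3 share differed by 34.3 to 35.7, -13.2 to -11.8, 1.14 to 2.13, 41.2 to 42.2 and 26.9 to 28.3 points.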
